A study of Mus musculus with 11 samples.

Results

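The baseline transcriptome of the CA1 field of the mouse hippocampus was described from 5 control libraries, chosen by their genotype label from the 11 libraries of the study. The other 6 libraries came from CamkdeltaC transgenic mice and were not analysed here. Each control library was a littermate control of these transgenic animals, 3 months of age. No treatment is given in the labels, and both males and females entered the study. CamkdeltaC is a splice variant of Camk2d, the gene of the delta subunit of CaMKII (calcium/calmodulin-dependent protein kinase II). The transgenic line carries it under a promoter active in the heart and models heart failure. CA1 was dissected under a microscope and snap frozen, and polyadenylated RNA was sequenced with a TruSeq v2 kit, which does not mark strand, as single-end reads of 50 bases. All 48709 gene identifiers of the deposited count tables were used. No label says that each library was a separate animal, so the SDs below measure the spread between these libraries, which may in part be technical.

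CA1 is the output field of the hippocampal circuit: its pyramidal neurons receive input from CA3 and pass it to the subiculum and the cortex. Synapses on these neurons are the classical site of long-term potentiation, in which calcium entering through NMDA receptors activates calmodulin and CaMKII and more AMPA receptors are placed in the membrane. The dentate gyrus, CA3 and CA2 lie next to CA1, the cortex and white matter above it, and the choroid plexus and meninges at its borders, so their marker genes were measured alongside.

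Control libraries 1 to 5 held 32456409, 32998596, 36898689, 31679533 and 14263784 counts assigned to genes. Levels are given as CPM, counts scaled to a common library total, for a gene followed across libraries. Levels of different genes are compared as TPM, a scaled level per transcript length, computed from the counts and each gene's exon length. Mitochondrially encoded genes took 3.86%, 3.97%, 4.40%, 5.03% and 3.87% of the counts, highest in control 4. A count of 3, taken as the limit that a count of 0 allows, corresponded to 0.0813 to 0.210 CPM, for counting error only. For every pair of libraries the chi-square of their counts exceeded its degrees of freedom, by 6.37 to 27.1 times, so no pair differed by counting noise alone, which does not show that they came from separate animals.

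The dissection was first checked against 4 marker genes. Wfs1 (ENSMUSG00000039474, mm10 chromosome 5, 36966104 to 36989205), which marks dorsal CA1 pyramidal cells and encodes a protein of the endoplasmic reticulum, stood at 326, 320, 229, 139 and 252 CPM in control libraries 1 to 5. Fibcd1 (ENSMUSG00000026841, chromosome 2, 31813290 to 31846005), another CA1 marker, stood at 231, 150.4, 211, 326 and 190.1 CPM. Both were well above the detection limit in every library, but they did not follow each other: control 4 was lowest for Wfs1 and highest for Fibcd1. The ratio of Wfs1 to Fibcd1 in TPM was 1.77, 2.67, 1.36, 0.537 and 1.67, so control 4 was the only library with more Fibcd1 than Wfs1. Camk2a (ENSMUSG00000024617, chromosome 18, 60925618 to 60988152), the alpha subunit of CaMKII found in forebrain excitatory neurons, stood at 4188, 3727, 4060, 4301 and 3493 CPM. Prox1 (ENSMUSG00000010175, chromosome 1, 190118035 to 190170714), a transcription factor of dentate granule cells also found in some interneurons, was present at 31.5, 40.5, 75.9, 66.7 and 18.6 CPM. In TPM, Wfs1 exceeded Prox1 by 23.0, 17.5, 6.67, 4.63 and 29.99 times and Fibcd1 exceeded it by 12.99, 6.55, 4.90, 8.62 and 18.005 times. Camk2a, which is not particular to CA1, exceeded Prox1 by 119 ± 61.6 times (SD, n = 5), from 60.1 in control 3 to 211 in control 5. Both CA1 markers were thus above the granule cell marker in all 5 libraries, by the smallest margins in control 3 and control 4 for Wfs1 and in control 3 and control 2 for Fibcd1, and Prox1 was detected in each.

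The transcriptome was spread over many genes. Of 48709 identifiers, 14213 had at least 1 CPM in all 5 libraries, among them 13094 of 21682 nuclear protein-coding genes (60.4%), while 18660 had no count in any. The highest 1054 genes held the first 50% of the mean CPM. Only 73 genes had a mean of 1000 CPM or more, and they took 14.9% of the counts. The 2270 genes from 100 to under 1000 CPM took 52.8%, the 7748 genes from 10 to under 100 CPM took 30.1%, and the 33841 genes under 1 CPM took 0.229%. Nuclear protein-coding genes held 93.6% ± 0.460 of the counts and long noncoding genes 1.86% ± 0.151 (SD, n = 5). The 84 cytosolic ribosomal protein genes, which are highly transcribed in most tissues, held only 0.272% ± 0.0178, and 75 of them reached 1 CPM in all libraries. How reads that match several places were counted is not given, and any effect of this on the ribosomal protein share was not tested.

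The 25 genes with the highest mean CPM held 8.85% ± 0.412 of the counts (SD, n = 5). Of these, 8 were mitochondrially encoded, led by mt-Co1, a subunit of cytochrome c oxidase, at 9429 ± 838 CPM and mt-Cytb, of complex III, at 7919 ± 984 CPM. Meg3, an imprinted maternally expressed long noncoding RNA (ENSMUSG00000021268, chromosome 12, 109541001 to 109571726), was the highest nuclear gene at 7896, 6494, 5596, 6433 and 8471 CPM, and Snhg11, a neuronal host gene of small nucleolar RNAs that the annotation classes as protein coding, stood at 3674 ± 430 CPM. Camk2a was the highest nuclear protein-coding gene by counts, at 3954 ± 335 CPM. Slc1a2, the glutamate transporter of astrocytes, followed at 3780 ± 98.9 CPM. Others on the list serve the same neuronal and glial functions: the peptide-processing enzyme Cpe at 2794 ± 142 CPM, the axonal kinesin Kif5a at 2698 ± 239 CPM, the dendritic proteins Ncdn at 2381 ± 154 and Ddn at 2272 ± 258 CPM, the vesicle fusion protein Snap25 at 2179 ± 92.3 CPM, and the microtubule proteins Map2 at 1954 ± 173 and Map1a at 1912 ± 147 CPM. Mbp, the myelin basic protein of oligodendrocytes, had the widest relative spread among the 25, with 2206, 2352, 2341, 1357 and 1606 CPM, and was lower in control 4 and control 5 than in the other libraries.

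**Figure D1:**
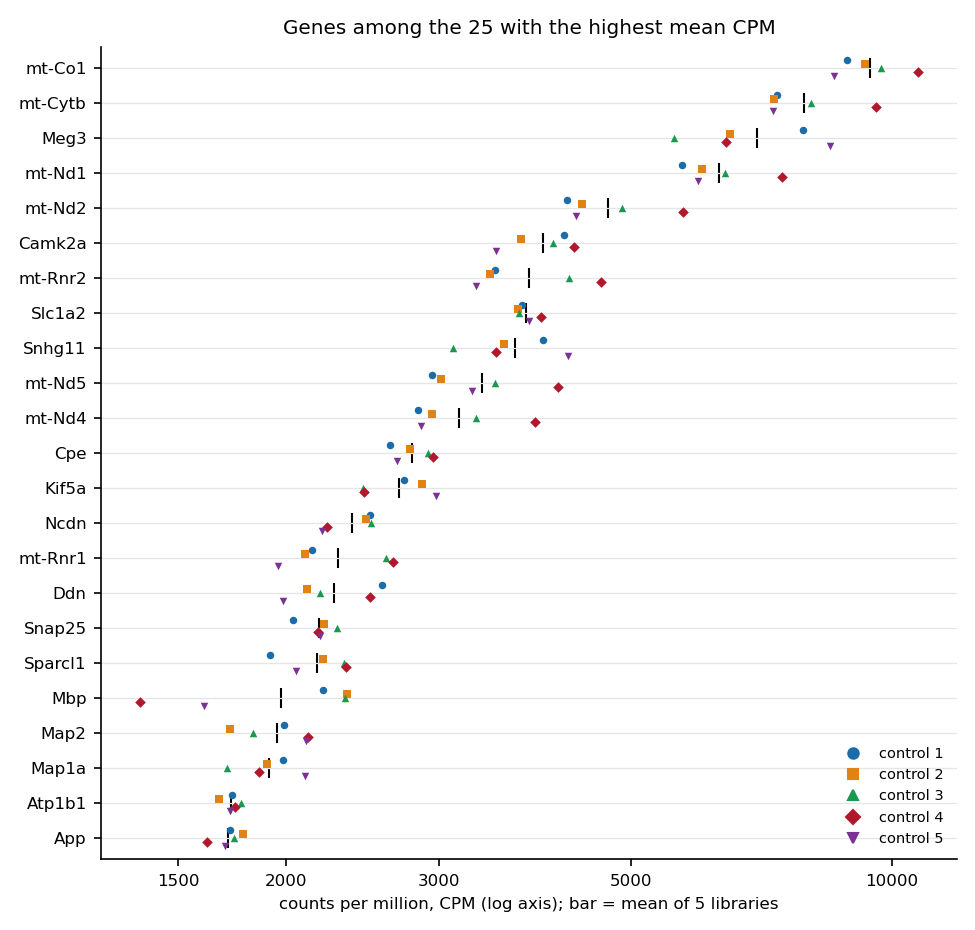
CPM (horizontal, log axis) of genes among the 25 with the highest mean, with 1 point per control library and a bar at the mean of 5 libraries. Control 4 is the highest library for mt-Co1 (10716 CPM) and lowest for Mbp (1357 CPM), while Slc1a2 and Atp1b1 vary little.

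Per length, the order changed. Among nuclear protein-coding genes the highest level was that of Cpe, at 4290, 4396, 4583, 4605 and 4376 TPM. Sparcl1, a secreted astrocyte protein that promotes synapse formation, was second at 3066 ± 199 TPM and was below Cpe in every library. The next 13 genes, from Ncdn at 2670 ± 179 TPM to the prion protein gene Prnp at 2187 ± 84.9 TPM, lay close together, and the ranges of neighbours in this order overlapped. They comprised genes of secreted or lysosomal glial and neuronal proteins (Cst3 at 2646 ± 203 TPM, Apoe at 2473 ± 166 TPM, Psap at 2318 ± 93.7 TPM), calmodulin genes (Calm3 and Calm2), genes of postsynaptic calmodulin signalling (Nrgn at 2261 ± 190.4 TPM, Camk2a at 2201 ± 172 TPM), the sodium pump subunit Atp1b1, the chaperone Hsp90ab1 at 2204 ± 71.5 TPM and the actin-binding peptide gene Tmsb4x at 2299 ± 192 TPM. The mitochondrially encoded protein genes with a mean of at least 1 CPM were higher per length than any nuclear protein-coding gene, from 7666 ± 952 TPM for mt-Nd5 to 28745 ± 3099 TPM for mt-Cytb, while the others were at or near 0.

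Some genes known to be abundant had few or no counts, and most of these shared sequence with other places in the genome. The measure used was the share of a gene's 50-base exon windows that occur once in the genome, a length equal to that of the reads. mt-Co2, a further cytochrome c oxidase subunit, had 0 counts in all 5 libraries, and 0% of its windows were unique. Its level therefore cannot be read from these counts. mt-Atp6 and mt-Nd4l also had 0 counts with 0.475% and 1.21% unique windows, and mt-Co3 and mt-Nd3 had at most 1 count in a library with 0.136% and 2.01%. mt-Atp8, at 0 counts, was the exception by this measure: all of its windows were absent from other genes' annotated transcripts. Copies outside these transcripts would not be seen, and 21.1% of its exon bases overlapped another gene. A low share did not always go with few counts: mt-Co1, the highest gene by CPM, had 48.9% unique windows, and mt-Nd4 had 37.8% and 3166 ± 439 CPM. Among nuclear genes, Actg1, the cytoplasmic gamma actin, had 2.05 ± 0.721 CPM with 43.3% unique windows, and the chaperone Hspa8 had 49.3 ± 1.42 CPM with 47.3%. The glycolytic gene Gapdh had 20.01 ± 2.53 CPM with 72.2% unique windows, and Hba-a2, an alpha globin, had 0 counts with 13.1%. Across protein-coding genes, 40 of 847 with under 10% unique windows reached 1 CPM in all libraries (4.72%), against 10994 of 16486 with 90% or more (66.7%). Levels of genes with few unique windows are uncertain, and the treatment of reads that match several places is one of the steps that no source used here gives.

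The members of 27 gene families were then ranked per length. Of 170 family genes, 155 reached 1 CPM in all 5 libraries. Among these, 128 pairs stood next to each other in the order by mean TPM, of which 103 pairs kept that order in all 5 libraries and 89 had ranges that did not overlap. In 10 families a single member held over 50% of the family's TPM. With 5 libraries a paired exact permutation test cannot give a two-sided p below 0.0625, so the order is given as the number of libraries in which it held.

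CaMKII, the kinase whose delta subunit the transgene encodes, was dominated in these controls by its alpha subunit. Camk2a stood at 2386, 2061, 2228, 2342 and 1990 TPM in control libraries 1 to 5 and made up 77.4% of the family. Camk2b, the beta subunit that binds actin, had 494 ± 45.0 TPM, and Camk2g had 133 ± 18.7 TPM (SD, n = 5). Camk2d (ENSMUSG00000053819, chromosome 3, 126596302 to 126846326) was lowest at 10.03, 17.3, 11.2, 10.7 and 17.0 TPM, or 0.474% of the family, and the gene counts do not separate its splice forms. The 4 subunits kept this order in every library, and Camk2g was 10.4 times Camk2d in TPM on average. The share and this ratio depend on exon length, which was 22493 bases for Camk2d and 6401 for Camk2g. By CPM, with no account of length, Camk2d had 71.6 and Camk2g 204. Of the calmodulins that activate the kinase, Calm3 had 2503 ± 127 and Calm2 2435 ± 147 TPM. Calm3 was above Calm2 in only 3 of 5 libraries, so their order was not resolved. Of calcineurin, the phosphatase that opposes the kinase, the regulatory subunit gene Ppp3r1 had 1042 ± 83.2 TPM, the catalytic Ppp3ca 657 ± 69.3 TPM and Ppp3cc 26.4 ± 1.45 TPM.

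Among AMPA receptor subunits, which carry fast excitatory transmission, the order by TPM was Gria1, Gria2, Gria3 and Gria4 in every library. By CPM, with no account of length, Gria2 was instead above Gria1, at 1177 against 1033. Gria1 had 796, 597, 686, 749 and 728 TPM and held 57.8% of the family, Gria2, which makes the channel impermeable to calcium, had 315 ± 33.5 TPM, and Gria4 had 63.9 ± 4.54 TPM. Of NMDA receptor subunits the obligatory Grin1 was highest with 205, 188, 167, 155 and 190.4 TPM. Grin2b at 117 ± 18.9 TPM was above Grin2a at 82.1 ± 10.4 TPM in all 5 libraries, and the lowest member at 1 CPM was Grin2d at 14.3 ± 2.30 TPM. Grin2c, best known from cerebellar granule cells and also found in astrocytes, had 66.6 ± 6.47 TPM. The kainate receptor subunit Grik5 had 194 ± 12.8 TPM and 63.9% of its family, against 42.0 ± 6.19 for Grik3 and 16.6 ± 1.82 TPM for Grik1. The group I metabotropic receptor Grm5 had 178 ± 22.3 TPM and Grm3 65.3 ± 5.99 TPM, and Grm8 was lowest of the 7 detected at 7.40 ± 1.502 TPM. Grm2, a presynaptic receptor known from granule cells, varied more than its relatives, with 39.7, 68.9, 58.2, 41.1 and 51.8 TPM, and its place between Grm3 and Grm7 held in 4 of 5 libraries on each side.

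Inhibitory transmission runs through GABA-A receptors. Of their alpha subunits Gabra5, which is enriched in the hippocampus and mediates tonic inhibition, had 210.1 ± 19.9 TPM and was above Gabra2 in every library, and Gabra2 at 170.2 ± 20.7 TPM was above Gabra3 at 149 ± 19.7 TPM in 4 of 5. Gabra4 was lowest of those at 1 CPM, at 72.5 ± 3.12 TPM, and Gabra6, the cerebellar granule cell subunit, had 0.0600 ± 0.0926 TPM. Among beta, gamma and delta subunits Gabrb2 had 113 ± 14.7 TPM and Gabrb1 80.7 ± 7.33 TPM, while Gabrd, a partner of extrasynaptic receptors, had 29.4 ± 3.20 TPM and Gabrg3, the lowest, 14.04 ± 1.77 TPM.

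Of voltage-gated channels, the sodium channel genes Scn8a at 134 ± 13.9 TPM and Scn2a at 128 ± 5.53 TPM were nearly equal, with Scn8a above in 4 of 5 libraries. Scn1a, the main sodium channel of fast-spiking interneurons, had 62.5 ± 7.30 TPM and was below Scn2a in all 5. Calcium channel alpha1 subunits formed a shallow series from Cacna1e, of R-type channels, at 111 ± 18.7 TPM and Cacna1h, of T-type channels, at 92.0 ± 10.6 TPM to the L-type Cacna1c at 21.7 ± 2.55 and Cacna1d at 21.3 ± 2.30 TPM. The order of the last pair held in only 2 of 5 libraries. Hcn2 led the HCN channels, which carry the hyperpolarization-activated current, with 172, 185, 139.6, 119 and 151 TPM and 70.0% of the family. Hcn3 had 20.02 ± 1.42 TPM and Hcn4 only 1.32 ± 0.372 TPM. Kcna2 led the Kv1 potassium channels at 108 ± 11.6 TPM, Kcna6 and Kcna1 were not resolved at 50.4 ± 2.74 and 49.03 ± 6.71 TPM, and Kcna5 was lowest at 2.30 ± 0.397 TPM. Since 39.6% of the exon bases of Kcna6 overlap another gene and the kit does not mark strand, its level is uncertain.

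**Figure D2:**
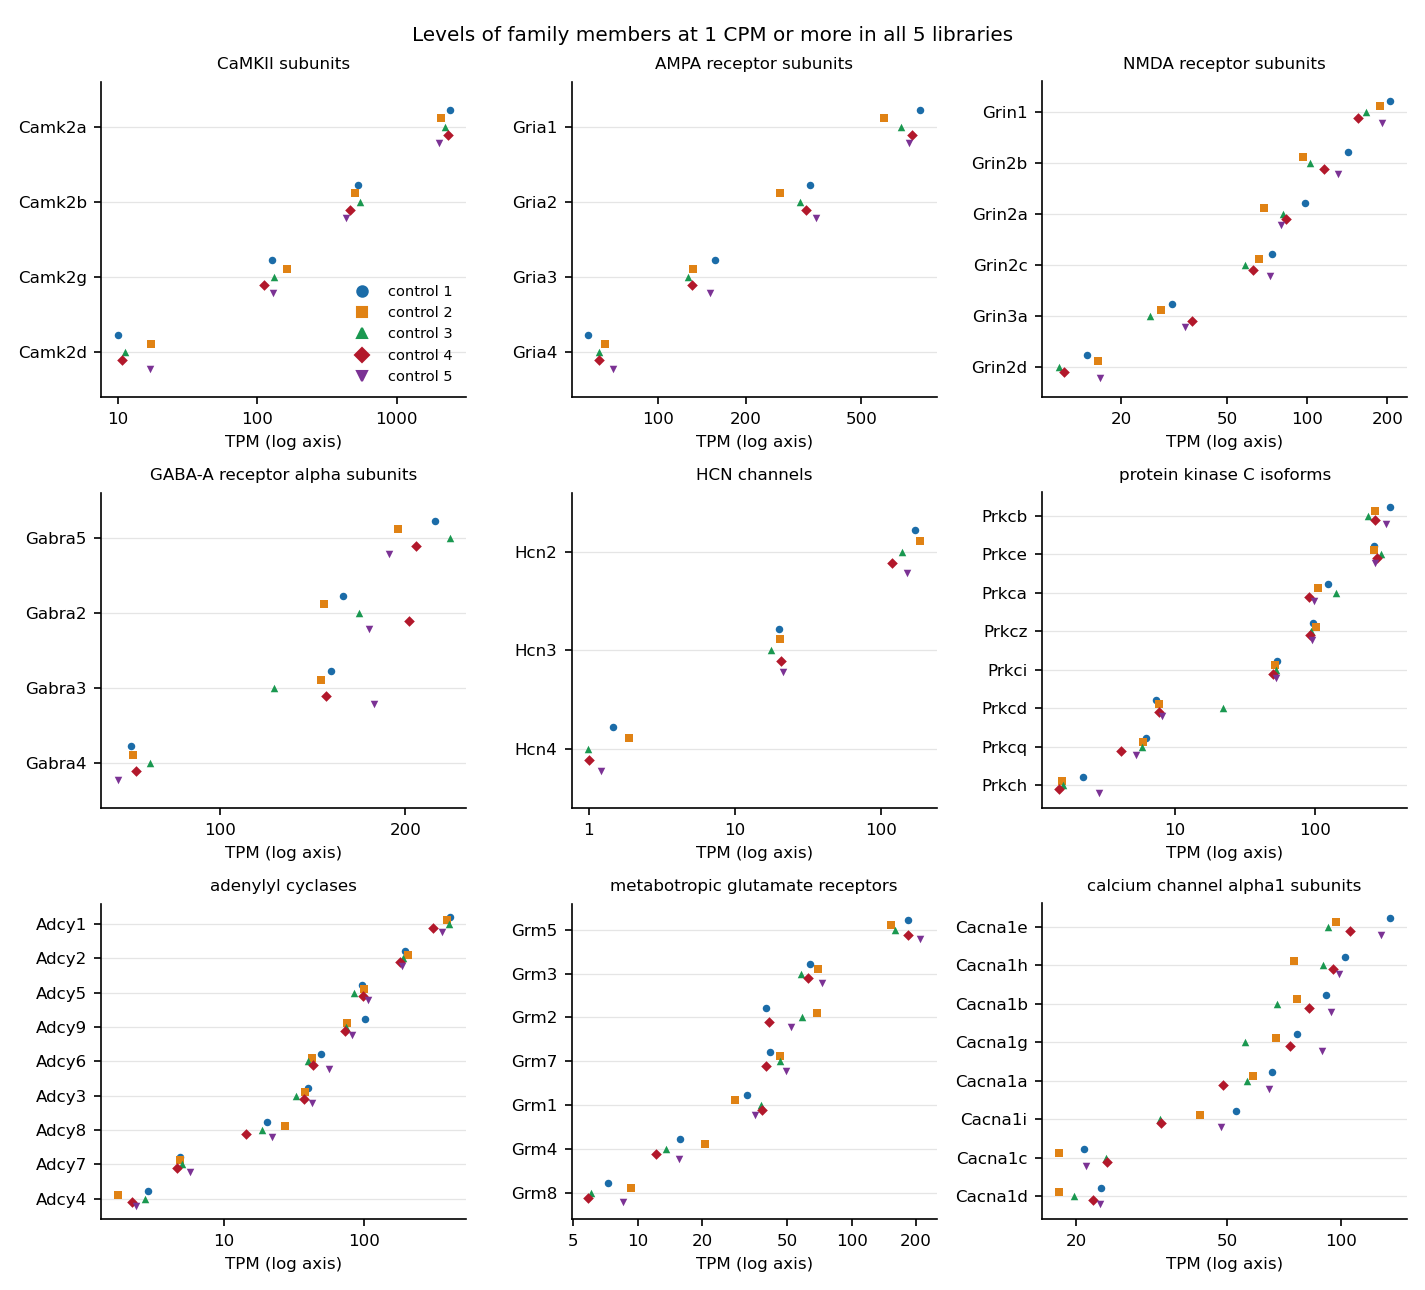
TPM (horizontal, log axis) of members of 9 gene families, limited to those with at least 1 CPM in all 5 libraries, with 1 point per control library. In the panels of CaMKII, AMPA and HCN members the rows do not overlap, while Gabra2 and Gabra3 or Cacna1c and Cacna1d do.

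Most transporter and synaptic protein families had a clear leading member. Slc17a7, the vesicular glutamate transporter of cortical and hippocampal pyramidal neurons, had 927 ± 49.3 TPM and 95.8% of its family. Slc17a6, the subcortical form, had 39.0 ± 10.7 TPM and varied more, with 35.7, 53.7, 39.8, 24.2 and 41.5 TPM, and Slc17a8 had 1.94 ± 0.281 TPM. At the plasma membrane the astrocytic Slc1a2 stood at 1197 ± 34.5 TPM, Slc1a3 at 361 ± 31.9 TPM and Slc1a6 at 21.1 ± 1.88 TPM. Among synapsins, which tether synaptic vesicles, Syn1 had 687 ± 37.0 TPM, Syn2 352 ± 16.1 TPM and Syn3 3.29 ± 0.369 TPM. Syt1, the calcium sensor of fast release, was above Syt11 in every library, at 808 ± 33.7 against 707 ± 51.1 TPM, and of 14 synaptotagmins Syt6 was lowest at 5.14 ± 1.13 TPM. Dlg4, which encodes PSD-95, had 255 ± 16.2 TPM and Dlg3 166 ± 9.54 TPM, down to 52.9 ± 2.95 TPM for Dlg1.

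In signalling and pump families, the protein kinase C genes Prkcb at 286 ± 43.6 TPM and Prkce at 271 ± 13.6 TPM were not resolved, and Prkch was lowest at 1.94 ± 0.584 TPM. Prkcd, which is high in thalamus, stood apart in control 3, with 7.28, 7.70, 21.99, 7.64 and 8.12 TPM. Adcy1, the calmodulin-stimulated adenylyl cyclase, led its family at 380 ± 40.7 TPM, about 1.97 times Adcy2, and Adcy4 was lowest at 2.38 ± 0.447 TPM. Of the beta subunits of the sodium pump, Atp1b1 had 2334 ± 62.5 TPM, Atp1b2, the glial form, 431 ± 32.6 TPM and Atp1b3 136 ± 9.40 TPM. Overlapping genes cover 18.7% of the exon bases of Atp1b1, which adds uncertainty to its level.

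The 14-3-3 adaptor genes ran from Ywhae at 1150.0 ± 48.3 and Ywhag at 900.2 ± 29.7 TPM to Ywhaq at 77.3 ± 7.53 TPM, but with the longest transcript as length the first pair were nearly equal, at 1107 TPM each. Tubulin and actin genes had one or a few leading members: Tubb4a at 1126 ± 116 and Tubb2a at 809 ± 18.9 TPM with Tubb6 lowest at 4.27 ± 0.908 TPM, Tuba1a at 473 ± 34.4 and Tuba4a at 399.7 ± 25.1 TPM with Tuba8 lowest at 8.52 ± 1.40 TPM, and Actb at 1231 ± 29.8 TPM with Acta1 at 19.0 ± 3.71 TPM. Because 24.5% of the windows of Tuba1a and 16.9% of those of Tuba1b were unique, the alpha tubulin order is uncertain, as is the place of Actg1 as the lowest actin at 3.22 ± 1.18 TPM. Of glycolytic genes, Aldoa had 1637 ± 64.5 TPM and Eno2, the neuronal enolase, 1057 ± 59.3 TPM. The H3K4 methyltransferases, chromatin enzymes studied in memory, were all under 100 TPM and close together. Kmt2a had 89.4, 70.3, 60.5, 65.3 and 88.6 TPM, Kmt2e 55.9 ± 4.30 TPM, and Setd1b and Setd1a shared the lowest place at 20.2 ± 2.40 and 20.1 ± 1.87 TPM, although 46.0% of the windows of Setd1a were unique and 52.3% of its exon bases overlapped other genes.

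The cell types whose RNA the libraries held were described with 22 marker lists, as summed CPM. A low sum can mean fewer cells of a type or less RNA per cell, which bulk tissue cannot tell apart. All 10 CA1 pyramidal markers reached 1 CPM in every library, and their sum was 1654, 1439, 1251, 1447 and 1541 CPM, lowest in control 3. Mpped1, the highest of them, had 417, 437, 348, 420.5 and 444 CPM. Markers of glutamatergic neurons in general summed to 7475 ± 427 CPM (SD, n = 5), led by Camk2a, Slc17a7 at 1202 ± 48.95 CPM and Nrgn at 790 ± 63.0 CPM. GABAergic interneuron markers summed to 2098 ± 72.1 CPM and all 18 were detected in every library. Among their highest members were the GABA-synthesizing enzyme Gad1 at 375 ± 23.1 CPM and the peptide precursor Sst at 246 ± 18.4 CPM. Per length, Slc17a7 exceeded the vesicular GABA transporter Slc32a1 by 8.64 ± 0.537 times.

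Glial and vascular markers were measured next. Sums of lists with different members do not rank cell types. Astrocyte markers summed to 6535, 6885, 7003, 7351 and 6666 CPM, with Slc1a2, the aldolase Aldoc at 746 ± 68.6 CPM and the transporter Slc1a3 at 742 ± 77.9 CPM on top. Microglial markers summed to 480.2 ± 30.2 CPM (Csf1r 96.4 ± 5.37 and Cx3cr1 53.8 ± 4.73 CPM). Oligodendrocyte precursor markers summed to 202 ± 4.18 CPM, with the growth factor receptor Pdgfra at 77.5 ± 2.56, Gpr17 at 65.8 ± 3.36 and Cspg4 at 31.96 ± 2.23 CPM, the smallest relative spread of the 22 lists. Endothelial markers summed to 321 ± 34.2 CPM (Slc2a1 66.6 ± 4.14, Flt1 58.8 ± 12.9, Slco1a4 31.4 ± 4.49 CPM) and mural cell markers to 186 ± 10.2 CPM (Vtn 60.6 ± 5.31, Rgs5 58.3 ± 6.18, Pdgfrb 31.0001 ± 2.44 CPM). The ratio of astrocyte to microglial markers in TPM stayed at 4.59 ± 0.0807.

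**Figure D3:**
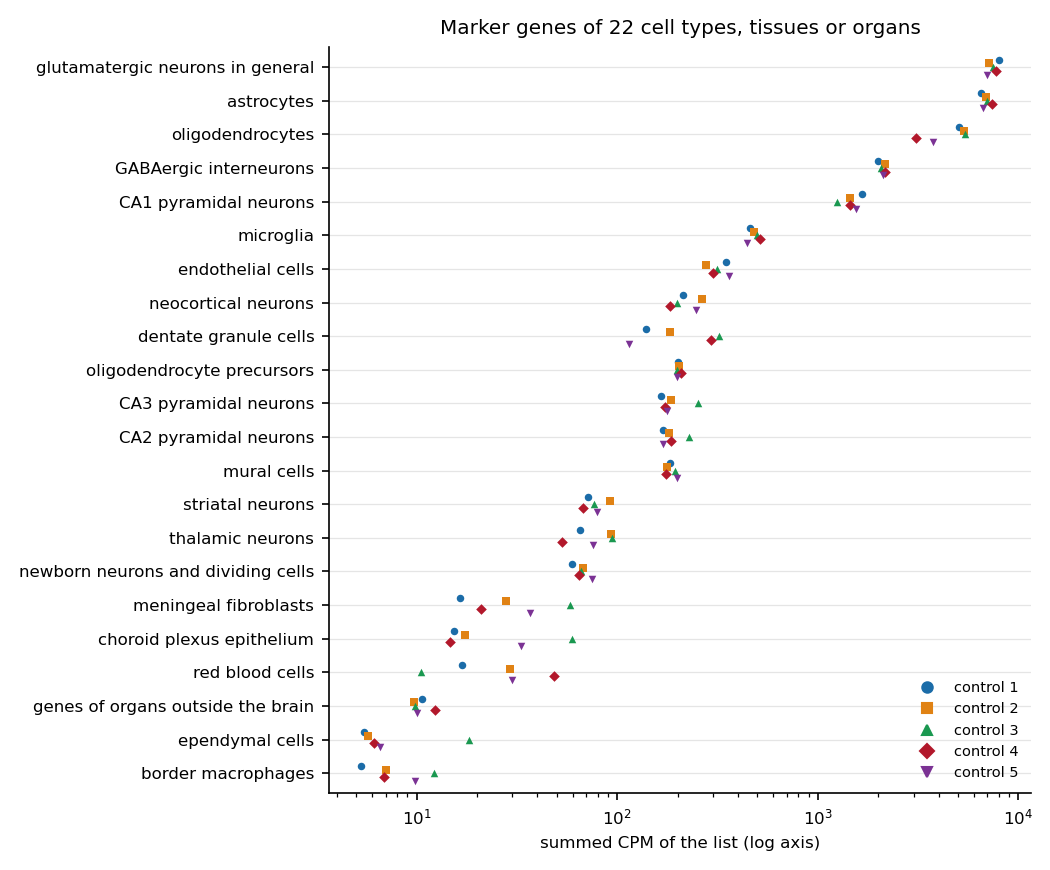
Summed CPM (horizontal, log axis) of the marker genes in each of 22 lists, with 1 point per control library and lists in the order of their mean. The dentate, oligodendrocyte, meningeal, choroid plexus, red blood cell and ependymal lists have the points farthest apart, while interneuron, precursor and microglial points lie together.

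RNA of several neighbouring tissues varied between libraries. Dentate granule cell markers summed to 139, 184, 323, 295 and 115 CPM, a 2.80-fold range, with control 3 and control 4 above the others. Stxbp6 had 39.6, 57.8, 79.8, 77.2 and 44.1 CPM and Pdzd2 had 35.3, 36.2, 63.3, 59.9 and 33.1 CPM. Dsp, which encodes the junction protein desmoplakin (ENSMUSG00000054889, chromosome 13, 38151294 to 38198577), ranged most, with 10.9, 9.30, 39.9, 37.3 and 2.80 CPM. Control 3 and control 4 were both above the other libraries for 7 of 8 dentate markers, the exception being C1ql2, against 2789 of all 14868 genes with a mean of at least 1 CPM (18.8%). The same was true of 8 of 15 microglial (53.3%) and 5 of 15 astrocyte markers (33.3%), whose sums differed far less between libraries. The precursor of dynorphin, Pdyn, known from granule cells, was also highest in these libraries, with 4.31, 5.70, 10.2, 11.5 and 2.59 CPM. The ratio of CA1 to dentate markers in TPM was accordingly 16.1, 9.20, 4.98, 6.23 and 16.7.

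CA3 and CA2 markers were highest in control 3 alone. CA3 markers summed to 166, 186, 254, 172 and 177 CPM, with Cpne4 at 50.9, 64.2, 87.5, 48.5 and 58.0 CPM, the kainate receptor gene Grik4 at 37.3 ± 6.68 and Socs2 at 22.4 ± 2.93 CPM. CA2 markers summed to 169, 181, 227, 185 and 169 CPM, with Rgs14 at 86.4 ± 9.93, Necab2 at 66.4 ± 8.18 and Pcp4 at 8.90, 14.1, 20.1, 14.1 and 7.78 CPM. Of the members with a mean of at least 1 CPM, 5 of 7 CA3 and 6 of 7 CA2 markers were highest in control 3, against 3042 of 14868 genes (20.5%). The ratio of summed CA1 to CA3 markers in TPM was 8.14 ± 2.02, and that of CA1 to CA2 markers was 4.39 ± 1.01. Because the lists hold different genes, these ratios do not give the proportions of the cell types.

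Control 3 was also the highest library for tissues at the border of the hippocampus. Choroid plexus markers summed to 15.4, 17.4, 59.7, 14.6 and 33.2 CPM, and Ttr, the thyroid hormone carrier secreted there, stood at 7.15, 6.39, 39.4, 5.46 and 19.98 CPM. The other leading members were low, with Kl at 4.13 ± 1.16 CPM and Prlr at 3.93 ± 1.75 CPM. Meningeal fibroblast markers summed to 16.4, 28.0, 58.2, 20.99 and 36.7 CPM (Col1a2 9.85 ± 5.03, Col1a1 8.31 ± 2.82, Slc6a13 7.69 ± 4.60 CPM), ependymal markers to 5.48, 5.70, 18.2, 6.16 and 6.59 CPM (Foxj1 4.29 ± 2.18, Rarres2 2.94 ± 1.33, Ccdc153 0.619 ± 1.09 CPM) and border macrophage markers to 8.23 ± 2.74 CPM (Mrc1 3.67 ± 1.30, F13a1 1.95 ± 0.772, Cd163 1.17 ± 0.415 CPM). Every one of the 5 choroid plexus, 5 meningeal, 2 ependymal and 3 border macrophage markers with a mean of at least 1 CPM was highest in control 3. Of all 14868 genes at that mean, 3042 were (20.5%). A marker's mean can reach 1 CPM through control 3 itself, and only 3 choroid plexus and 2 border macrophage markers had 1 CPM in all 5 libraries. Red blood cell genes went the other way, with 16.8, 29.1, 10.6, 48.6 and 29.9 CPM. All 4 members with a mean of at least 1 CPM were lowest in control 3 and highest in control 4. Over all genes, 21.7% were highest in control 4. These members included Hbb-bs at 14.5 ± 8.15, Hba-a1 at 7.41 ± 3.60 and Hbb-bt at 3.38 ± 2.08 CPM.

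Oligodendrocyte RNA divided the libraries differently. Its markers summed to 5058, 5354, 5395, 3103 and 3745 CPM, low in control 4 and control 5. Mobp, a basic protein of myelin (ENSMUSG00000032517, chromosome 9, 120149707 to 120181484), had 610.1, 578, 691, 343 and 422 CPM. All 12 markers were lower in control 4 and control 5 than in the other 3 libraries, against 1370 of 14868 genes (9.21%), and all 12 were lowest in control 4. The ratio of astrocyte to oligodendrocyte markers in TPM was 1.07, 1.10 and 1.12 in control libraries 1 to 3, 2.02 in control 4 and 1.46 in control 5. Markers of oligodendrocyte precursors did not share this division.

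Markers of more distant regions were detected as well. Neocortical neuron markers summed to 213, 265, 198, 184 and 246 CPM, with Fezf2 at 86.1 ± 13.6 and Tbr1 at 62.4 ± 12.2 CPM, both also found in hippocampal neurons, and Cux2 at 35.9, 64.7, 45.1, 26.8 and 48.8 CPM. Striatal markers summed to 77.5 ± 9.19 CPM (Ppp1r1b 41.1 ± 3.02, Rgs9 18.9 ± 0.695 CPM). Thalamic markers summed to 76.2 ± 17.9 CPM, led by Slc17a6 at 50.6 ± 13.8, Prkcd at 14.1 ± 8.75 and Rgs16 at 6.46 ± 0.823 CPM. Markers of newborn neurons and dividing cells summed to 66.5 ± 5.68 CPM (Dcx 41.4 ± 5.19, Sox11 19.5 ± 2.41, Mki67 2.99 ± 0.313 CPM). Genes of heart, muscle and other organs outside the brain summed to 10.5 ± 1.07 CPM, nearly all of it Myh6, the alpha heavy chain of heart myosin, at 9.64, 8.58, 8.27, 10.98 and 8.48 CPM, with 77.4% of its windows unique, followed by Actn3 at 1.05 ± 0.316 and Ckm at 0.104 ± 0.0885 CPM.

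**Figure D4:**
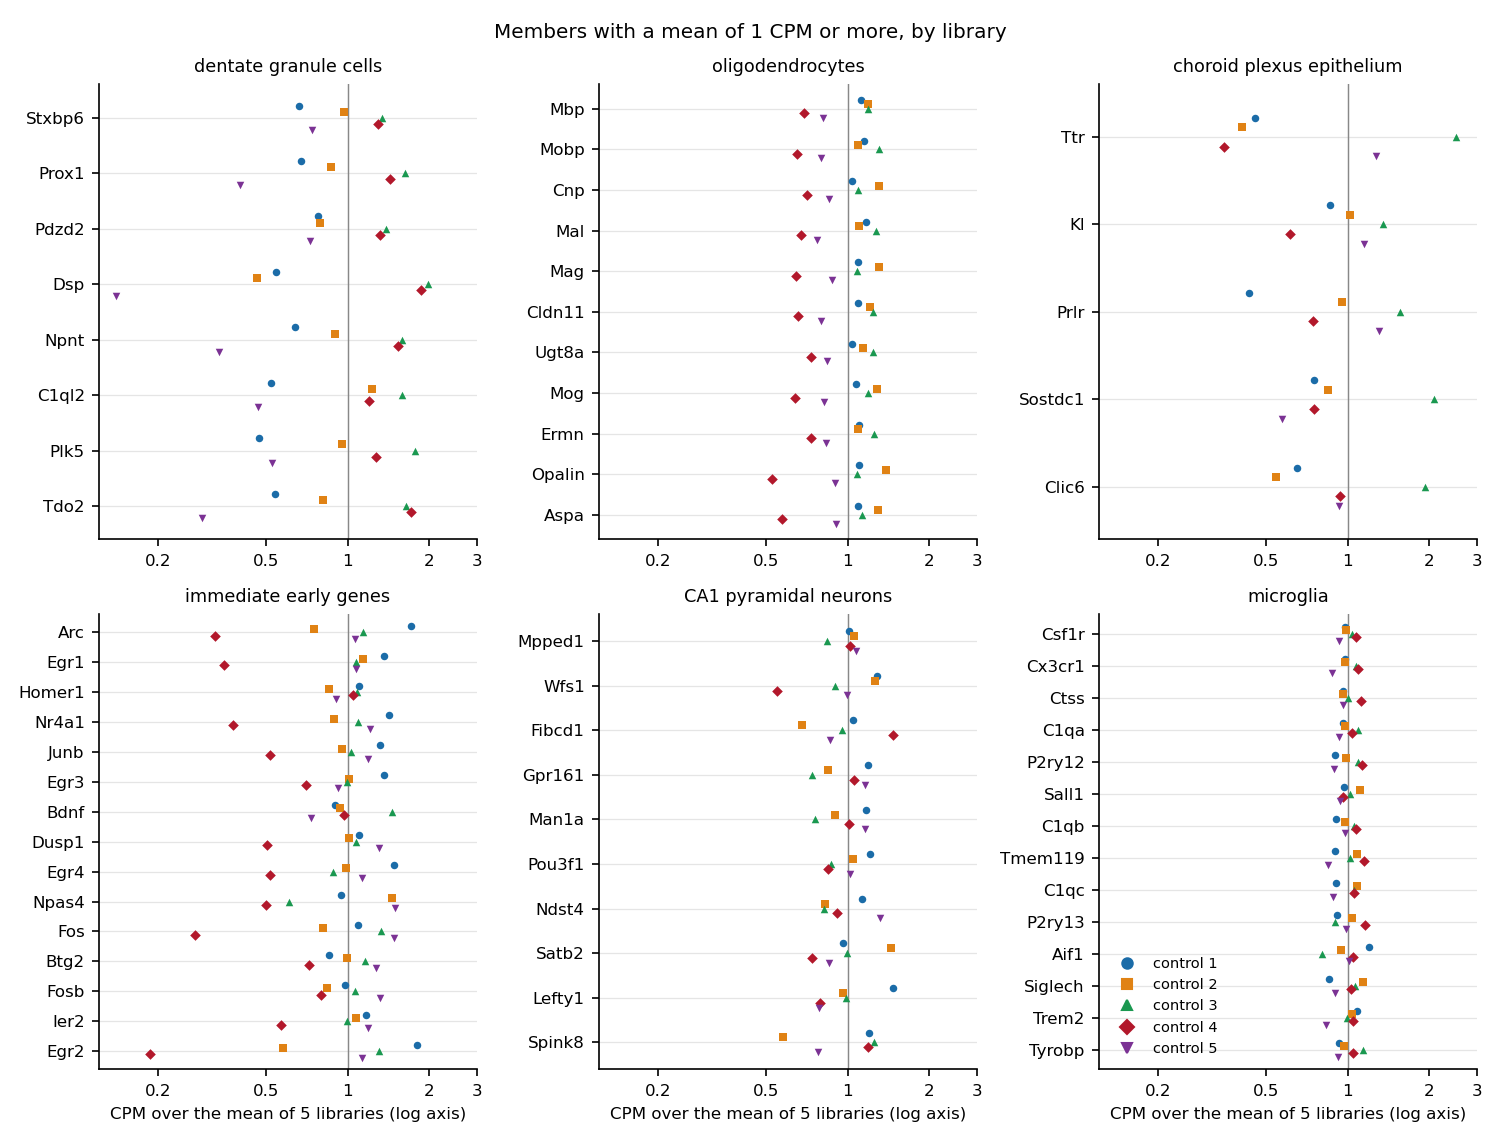
CPM of each marker divided by its mean over the 5 control libraries (horizontal, log axis), for markers from 6 gene lists with a mean of at least 1 CPM, with 1 point per library. Control 3 and control 4 lie right of the mean for dentate markers, control 4 and control 5 left of it for oligodendrocyte markers, and microglial points cluster at 1.

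Immediate early genes, which neurons transcribe within minutes of activity, were lowest in control 4. The 15 genes summed to 1123, 776, 911, 455 and 904 CPM, and 13 of the 15 were lowest in control 4, against 2929 of 14868 genes (19.7%). Arc, which regulates AMPA receptor removal (ENSMUSG00000022602, chromosome 15, 74669083 to 74672570), had 314, 137, 208, 58.9 and 193 CPM. Fos, a subunit of the AP-1 transcription factor, had 20.2, 15.03, 24.6, 5.05 and 27.5 CPM, and Egr2 had 6.72, 2.15, 4.85, 0.694 and 4.21 CPM. Egr1 stood at 213, 177, 168, 54.5 and 167 CPM and Nr4a1, a nuclear receptor, at 139.9, 88.1, 108, 37.2 and 120 CPM. Control 4 was thus separated from the other libraries for each of these, and Npas4, with 18.8, 29.1, 12.2, 10.01 and 29.9 CPM, was lowest there but close to control 3. The exceptions were Homer1, with 166, 128, 163, 157 and 136 CPM, which counts its long constitutive form as well, and Bdnf, with 25.7, 26.6, 41.4, 27.7 and 20.96 CPM. The mean log2 CPM of the 15 genes was 5.25, 4.85, 5.04, 3.99 and 5.14, a range of 1.25 log2 units that came down to 0.39 without control 4. Control 4 also had the highest mitochondrial share and the lowest oligodendrocyte sum, and any part of these in the low immediate early gene counts was not tested.

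The promoters of 4 immediate early genes with a wide spread and an entry in RefSeq's table are printed because these genes were lowest together in control 4 and are textbook targets of the calcium-activated factors CREB and SRF. Each runs from 250 bases before to 50 bases after a transcription start, on GRCm38.p6 as given by RefSeq, 5′ to 3′ on the strand of the gene. Capitals mark the core of the cyclic AMP response element (TGACG, or CGTCA on the other strand), the CArG box bound by SRF in Egr2 and the TATA box (TATAAA) in Fos. The positions are Egr2 at chr10:67537619-67537918 (plus strand, the first of 5 entries, by position, to hold the most marked letters), Fos at chr12:85473640-85473939 (plus), Nr4a1 at chr15:101266596-101266895 (plus) and Npas4 at chr19:4989922-4990221 (minus).
Egr2: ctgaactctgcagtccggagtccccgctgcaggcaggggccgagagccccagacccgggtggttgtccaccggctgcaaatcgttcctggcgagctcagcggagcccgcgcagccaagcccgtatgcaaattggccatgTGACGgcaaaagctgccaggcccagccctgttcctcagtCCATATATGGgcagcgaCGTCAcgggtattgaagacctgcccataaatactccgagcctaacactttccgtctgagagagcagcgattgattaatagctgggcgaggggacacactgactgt
Fos: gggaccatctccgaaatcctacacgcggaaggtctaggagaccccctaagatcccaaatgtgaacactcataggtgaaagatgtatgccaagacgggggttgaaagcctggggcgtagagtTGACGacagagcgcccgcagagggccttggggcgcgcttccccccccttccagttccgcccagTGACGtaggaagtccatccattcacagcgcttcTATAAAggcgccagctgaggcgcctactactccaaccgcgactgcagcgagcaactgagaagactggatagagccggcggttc
Nr4a1: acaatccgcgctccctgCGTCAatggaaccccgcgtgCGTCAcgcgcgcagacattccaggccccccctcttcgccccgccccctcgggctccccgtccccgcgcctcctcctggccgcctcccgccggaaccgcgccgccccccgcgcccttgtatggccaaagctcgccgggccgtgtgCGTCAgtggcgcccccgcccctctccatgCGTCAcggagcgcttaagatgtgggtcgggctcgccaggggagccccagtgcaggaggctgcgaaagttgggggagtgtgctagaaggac
Npas4: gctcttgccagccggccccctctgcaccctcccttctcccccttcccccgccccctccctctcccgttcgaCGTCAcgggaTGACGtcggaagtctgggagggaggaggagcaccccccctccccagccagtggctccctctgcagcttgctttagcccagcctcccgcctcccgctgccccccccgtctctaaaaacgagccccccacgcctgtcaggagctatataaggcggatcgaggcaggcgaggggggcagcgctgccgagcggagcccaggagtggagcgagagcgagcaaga

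Counted from the start, with -1 as the last base before it, the core lay at -111 and -55 in Egr2, at -129 and -66 in Fos, at -233, -213, -69 and -40 in Nr4a1 and at -179 and -169 in Npas4, each time the first of its 5 bases. The CArG box of Egr2 began at -72 and the TATA box of Fos at -33. Of the 15 immediate early genes, 11 had at least 1 entry in the table, and 11 of these 11 held the core in at least 1 entry, as did 6228 of all 27025 genes (23.0%). Per promoter, 13 of 22 entries of these genes held it against 6837 of 32851 (20.8%). The full element TGACGTCA was in 2 of the 22 (Btg2 and Dusp1) and in 1.79% of all promoters. The CArG box was in 4 of the 22, all entries of Egr2, and in 1.63% of all promoters, TATAAA in 2 of the 22 (Fos and Junb) and in 13.6%, and CACGTG, the E-box of the clock, in 2 of the 22 and in 7.15%. These matches describe letters in the window and not binding.

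Genes of other changing states had smaller median spreads than the 0.522 (SD of log2 CPM) of the immediate early genes. Against 0.128 for all genes with a mean of at least 1 CPM, the median was 0.360 for interferon response, 0.244 for neuropeptide, 0.214 for long noncoding, 0.180 for glucocorticoid and 0.136 for hypoxia genes, and lower for heat shock genes at 0.107. The 11 circadian clock genes summed to 1148 ± 44.7 CPM (SD, n = 5) with a median SD of 0.0988. Their widest members were Ciart, Per1 and Dbp, with SDs of 0.34, 0.32 and 0.28, and Per1, which activity also induces, had 122, 99.7, 100.9, 68.2 and 112 CPM. Glucocorticoid response genes summed to 425 ± 20.1 CPM, widest for Plin4, Errfi1 and Sgk1 (SDs of 0.36, 0.28 and 0.25 on the log2 scale). Heat shock genes summed to 911 ± 74.9 CPM, hypoxia genes to 294 ± 11.97 CPM and interferon response genes to only 29.4 ± 3.35 CPM. In these the widest members were the chaperone genes Hspb1, Hspa5 and Hspa1b (0.31, 0.25 and 0.22), Car9, Adm and Egln3 (0.89, 0.29 and 0.24) and Gbp2, Oasl2 and Ifit3 (0.56, 0.53 and 0.42). Car9, Hspb1 and Ifit3 averaged under 1 CPM, so their spread rests on few counts. The 14 neuropeptide precursors summed to 609 ± 15.1 CPM, carried by Sst, Cck at 220.5 ± 20.7 CPM and Npy at 36.2 ± 3.22 CPM, and the low-level Pdyn, Pomc and Adcyap1 were the widest (0.88, 0.64 and 0.56). Among 10 long noncoding RNAs the widest were Neat1, Snhg14 and Kcnq1ot1 (0.36, 0.25 and 0.25), and Meg3 and Snhg11 were both lowest in control 3 and highest in control 5.

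Between libraries most genes differed little. The common coefficient of variation from edgeR was 11.1% over 16326 genes after counting noise was removed, and the median SD of log2 CPM was 0.11 over 11698 genes with a mean of at least 5 CPM, a factor of 1.08. An SD above 0.5 was found for 127 of these genes (1.09%). In 51 of the 127 the highest library was control 3, and in 48 the lowest was control 4. Among all 14868 genes with a mean of at least 1 CPM these numbers were 3042 (20.5%) and 2929 (19.7%). The widest of all were genes of the sex chromosomes. Xist, the RNA that coats the inactive X chromosome (ENSMUSG00000086503, chromosome X, 103460366 to 103483254), had 1054, 0.333, 1019, 1088 and 0.911 CPM, and the Y-linked helicase gene Ddx3y had 0.0924, 64.2, 0, 0.347 and 75.6 CPM. The Y-linked Kdm5d, Uty and Eif2s3y divided the libraries in the same way: controls 1, 3 and 4 had Xist and little or no Y-linked RNA, and controls 2 and 5 the reverse. The 0 counts of Ddx3y in control 3 allow up to 0.0813 CPM, and 12.6% of the exon bases of Xist overlap another gene. The labels say that both sexes were used but give none per library. Dentate, oligodendrocyte and immediate early gene levels did not follow this division. The neocortical sums did, with controls 2 and 5 above the others. So did the striatal sums and those of newborn neurons and dividing cells, by smaller margins. The striatal sum was 79.29 CPM in control 5 against 77.02 in control 3. Among members with a mean of at least 1 CPM, the division held for 3 of 5 neocortical (60%) and 2 of 6 striatal markers (33.3%). It held for 2 of 4 newborn and dividing cell markers (50%), against 1679 of 14868 genes (11.3%). It also held for 2 of 4 thalamic markers, but the thalamic sum was highest in control 3.

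Of the other genes among the 20 most variable, 5 were highest in control 3 and control 4, like the dentate markers: Dsp (SD of 1.58 on the log2 scale), Lgr6 (1.31), Smoc2 (1.26), Il16 (1.12) and Lhx9 (1.003). Lgr6, a receptor of R-spondins, had 5.11, 6.97, 18.8, 19.6 and 2.24 CPM. Ttr, Slc13a4, Fmod and Ptgds, known from choroid plexus or meninges, were highest in control 3 with control 5 next. Ptgds, which makes prostaglandin D2 in meninges and oligodendrocytes, had 134, 343, 579, 89.8 and 356 CPM, and Slc13a4, a sulphate transporter, had 1.73, 7.45, 14.1, 2.21 and 8.62 CPM. Dsc3 (1.27) was highest in control 2 and lowest in control 4, and Cpne9 (1.11) was highest in control 3. Gbp4, an interferon-induced GTPase, differed from all of these with 19.5, 8.45, 2.14, 8.46 and 15.6 CPM, highest in control 1, and the last of the 20 was Fos. At the other end, the 10 steadiest genes with a mean of at least 50 CPM were Abcf1, Trpc4ap, Spata2, Mcfd2, Ttc3, Coro1c, Bcl2l2, Sept3, Nceh1 and Smap2. Abcf1, a translation factor, had 85.7, 88.5, 87.6, 85.0 and 87.6 CPM, Ttc3, a ubiquitin ligase, 1185 ± 17.2 CPM and the neuronal septin Sept3 705 ± 9.03 CPM.

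**Figure D5:**
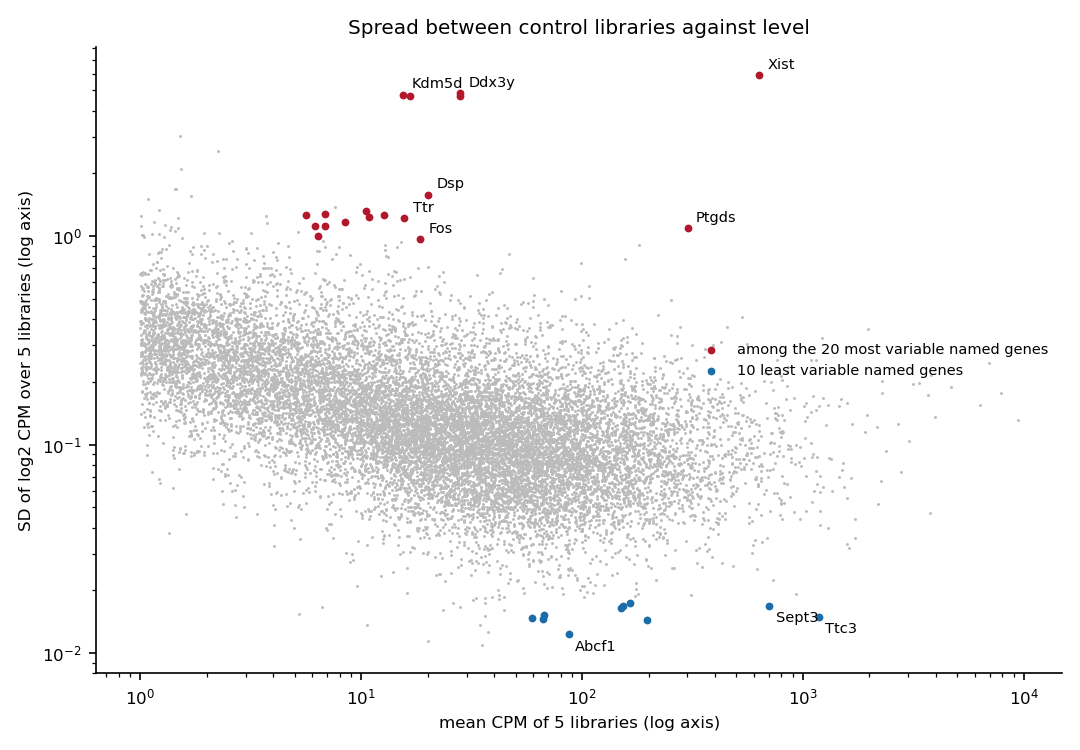
SD of log2 CPM over the 5 control libraries (vertical, log axis) against mean CPM (horizontal, log axis) for genes with a mean of at least 1 CPM, with genes among the 20 most variable (red) and the 10 least variable (blue) marked. Xist and the Y-linked genes stand above all others, and Dsp, Ttr, Ptgds and Fos lie above genes of like level.

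A trend on base composition was also present. The slope of a gene's deviation from its mean log2 CPM on transcript GC content, per 10 percentage points, was 0.033, 0.091, -0.051, -0.069 and -0.0050 in control libraries 1 to 5. Control 3 and control 4, the lowest by this slope, were the highest for dentate markers. With the trend removed the SD of Dsp was 1.58 on the log2 scale, as before. Its GC content was 51.8%, and slopes of this size could change so wide a spread only little. The range of the immediate early genes was 1.21 against 1.25. Any part of the trend in the dentate marker levels was not tested.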

How the data were processed

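RNA of dissected CA1 was measured in 5 control libraries. The values are raw counts per gene deposited by the authors for 48709 Ensembl gene identifiers on mm10, and 0 columns outside these samples were used. Per the submitters' processing notes, the tools were STAR 2.5.2b, Subread 1.5.1 with featureCounts, and FastQC 0.11.5. Not given in the sources used here were what each did, its annotation and settings, and how reads of repeated or overlapping sequence were counted.

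Names, exon lengths and GC content came from the GENCODE vM21 annotation of the same build, which named 48349 identifiers. The 360 unnamed identifiers held 0.0599% ± 0.00343 of the counts. CPM is a count scaled to a library total of 1000000. TPM divides each count by the length of the union of exons before the same scaling, over all named genes, mitochondrial ones included. Unique windows are the 50-base windows of a gene's longest transcript found in no other gene's annotated transcripts, on either strand. The rest of the genome was not searched. Total counts ranged from 14263784 to 36898689, and a count of 3 was taken as the limit for a count of 0, which covers counting error only.

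Spread was described with edgeR 4.0.16 in R 4.3.3 (TMM scaling, log2 CPM with a prior count of 2, over all genes). The common coefficient of variation came from genes kept by filterByExpr with an intercept only, and the procedure was tested on simulated counts. Since filterByExpr drops genes present in only 2 libraries, SDs were taken before it. Summaries and figures used Python 3.11.15, pandas 2.3.3 and matplotlib 3.10.9. No comparison between groups was made, because only 1 group entered. Alternatives were other scalings (DESeq2 1.42.0 size factors, total counts, upper quartile), filters, gene lengths, removal of a GC trend by lowess with a span of 0.3, totals without mitochondrially encoded genes, and leaving out each library in turn.

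The gene lists (22 of cell types or tissues, 27 of families, 9 of states, 435 distinct genes) and the rules below were chosen with earlier results of these data known. Named genes were the 25 highest by mean CPM, the 15 nuclear protein-coding genes highest by mean TPM, the highest 2 and the lowest of each family at 1 CPM in all libraries with others of these families, the 3 highest of each cell type list, the 20 with the largest SD of log2 CPM at a mean of at least 5 CPM that had a symbol other than a Gm, Rik or pseudogene name, the 10 with the smallest at a mean of at least 50 CPM, and the 3 widest of each state list. Other names, such as Actg1, Gapdh, Hspa8, Hba-a2, the silent mitochondrial genes, C1ql2, Egr1, Nr4a1, Npas4, Homer1 and Bdnf, were chosen after their values were seen. Some genes that these rules name are not reported here.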

Additional observations from a re-analysis of the deposited data

Results flagged for a closer look

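In each group of 5 libraries, 299 values were screened for a library whose gap to its nearest neighbour exceeded 0.71 of the whole range, Dixon's 95% critical value for 5. This picked out 17 of 299 values (5.69%), where chance picks out about 1 in 20. Control 3 was the library standing apart in 10 of the 17, control 2 in 4, and control 1, control 4 and control 5 in 1 each.

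The share picked out was close to what chance gives, so the values below are descriptions. In control 3 the summed CPM was 254 for CA3 pyramidal markers (lowest library 166), 227 for CA2 pyramidal markers (lowest 169) and 18.2 for ependymal markers (lowest 5.48). Single genes, of which the first 3 are members of the ependymal sum, were Foxj1 at 8.10 CPM, Rarres2 at 5.26 CPM and Ccdc153 at 2.57 CPM, where Ccdc153 had 0.0924, 0.0909, 0.126 and 0.210 CPM in the other libraries. Prkcd, a protein kinase C isoform high in thalamus, stood at 29.8 CPM (lowest 9.49), but it was the only 1 of 4 thalamic markers highest in control 3. The smooth muscle actin Acta2 stood at 10.03 CPM (lowest 3.73) and the beta tubulin gene Tubb6 at 3.50 CPM (lowest 2.19). The CA1 marker Mpped1 stood apart on the low side, at 348 CPM against up to 444 CPM.

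Control 2 was the highest library for Kcna6 at 79.1 CPM, Syt5 at 181 CPM, Prkcz at 155 CPM and Tuba1b at 45.2 CPM. Control 4 was the highest for Syt9 at 11.9 CPM, and control 1 for Adcy9 at 125 CPM. These 6 values exceeded the lowest library by less than 1.5 times. Control 5 stood apart in depth, with 14263784 counts against 31679533 or more elsewhere.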

How the results depend on the processing

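Without mitochondrially encoded genes the 25 highest genes held 6.29% of the counts, not 8.85%. Ranked by CPM, 17 of 27 families kept their highest member, and 21 with the longest transcript as length (among the changes, Calm2 then led the calmodulins, Ppp3ca calcineurin, Ywhag the 14-3-3, Tuba4a the alpha tubulin and Kmt2e the methyltransferase genes). The coefficient of variation, 11.1%, was 12.01% with no filter, 10.3% at a mean of at least 10 CPM, 10.5% with the GC trend removed and 10.7% to 11.7% with 1 library left out, highest without control 5. The range of the immediate early genes was 0.39 to 1.25 with 1 library left out, lowest without control 4, and the GC slope range of 0.160 was 0.101 to 0.161, lowest without control 2. The coefficient of variation and the immediate early gene range were judged against the SD of their leave-one-out values. The GC slope range was judged against the SD of the library slopes, 0.0649, and by that margin it did not move. The other 67 summary values were classed as unmoved. Among them was the ratio of CA1 to dentate markers, 9.13 to 12.1 with 1 library left out and 7.95 as a median over members. So were the pairs in order, 105 to 108 with 1 library left out, 90 by CPM and 98 by longest transcript. Counts of genes, pairs and families had no SD to be judged against. Genes at 1 CPM, for example, numbered 14213 in all 5 libraries and 15558 in at least 1. Of gene and list values, 7 moved, each with mitochondrially encoded genes out of the total. TMM-scaled CPM was already the scale of the state genes. Log2 CPM on total counts with no prior count, chosen after seeing the data, gave 1.27 for the immediate early genes. No paired analysis was possible because only 1 group was used. Depth limits genes near 1 CPM most in control 5.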
